A study of Mus musculus with 79 samples.

Results

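The glucocorticoid-responsive genes and the metallothioneins were described here as a set of 10 genes, *Fkbp5*, *Tsc22d3*, *Sgk1*, *Zbtb16*, *Dusp1*, *Mt1*, *Mt2*, *Pdk4*, *Angptl4* and *Cebpd*, out of 31350 features on the array. The members were listed by name, with earlier results of these data known, and each matched exactly 1 feature. The values were log2 RMA intensities from 79 male and female C57BL/6J mice, 5 to 7 weeks old, with 1 array of whole lung RNA per mouse. The mice were WT or βENaC littermates. βENaC mice carry the *Scnn1b* transgene, which overexpresses the beta subunit of the epithelial sodium channel in airway epithelium and gives mucus obstruction and airway inflammation. They were exposed to smoke of 6 3R4F reference cigarettes per day or to room air in the same chamber (sham) for 1 day or 5 consecutive days, and the right lung was taken 4 hours after the last exposure. There were 20 smoke and 20 sham mice at 1 day and 19 smoke and 20 sham mice at 5 days, in 16 groups of 4 to 6 mice by genotype, exposure, sex and duration.

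Glucocorticoids secreted by the adrenal cortex bind the glucocorticoid receptor, which then enters the nucleus and binds DNA near its target genes. In most cells it induces feedback and anti-inflammatory genes such as *Fkbp5*, *Tsc22d3* and *Dusp1*, and it shifts metabolism toward fat use through genes such as *Pdk4* and *Angptl4*. Metallothioneins are small cysteine-rich proteins that bind zinc, copper and cadmium. Their genes are induced through the metal-sensing transcription factor MTF1 and also by glucocorticoids and in inflammation, so *Mt1* and *Mt2* belong to both pathways.

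Array medians lay between 4.44 and 4.55, and no pair of arrays correlated below 0.965. *Scnn1b* was between 8.42 and 9.47 in WT mice and between 11.52 and 11.88 in βENaC mice, so all 79 mice matched the genotype in their titles, including 13 WT smoke mice whose source names give βENaC. The lung markers (surfactant, club, ciliated, alveolar type 1 and endothelial genes) had a summed log2 level between 14.68 and 14.86 in all mice. This sum is set mostly by the brightest markers and says little of the dimmer ones. *Cldn5* ran from 8.79 to 9.71 and *Foxj1* from 7.17 to 7.96. Of the 7 markers 0 were called for exposure, genotype or sex by limma. At 1 and 5 days the adjusted p was below 0.05 for 0 and 2 by exposure, 2 and 3 by genotype, and 3 and 0 by sex. Of all 31350 features it was below 0.05 for 2964 and 2048, 1840 and 3191, and 3101 and 193, in the same order. Some mice stood apart. The WT smoke female 5-day mouse replicate 2 held the highest value of 6 of the 10 genes among all 79 mice. The WT smoke female 5-day mouse replicate 4 and the WT sham male 1-day mouse replicate 4 had summed skeletal muscle marker levels of 12.37 and 12.02, against 7.31 in the next mouse. Results that turn on these 3 mice are given with and without them. The βENaC smoke female 1-day mouse replicate 2 had a summed thymocyte marker level of 9.76, against 8.15 in the next mouse, and without it the same 4 genes were called for exposure at 1 day. Of the 4 thymocyte markers 0 were called for exposure by limma at either duration, and 0 had an unadjusted p below 0.05. In whole lung, fewer cells of a type and less RNA per cell cannot be told apart.

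*Mt1*, *Mt2*, *Fkbp5* and *Zbtb16* were higher in smoke than in sham mice after 1 day, and *Mt1*, *Mt2* and *Fkbp5* after 5 days. A gene was called when its adjusted p in limma was below 0.05 and its coefficient was larger in size than 0.379 on the log2 scale, which is 1.3-fold. At 1 day 4 of the 10 genes were called, all higher, against 1.07% of all features called in either direction and 0.485% called higher. At 5 days 3 of the 10 were called, all higher, against 1.15% of all features called in either direction and 0.577% called higher. The median log2 difference between smoke and sham over the 10 genes was 0.46 at 1 day and 0.21 at 5 days, against 0.010 and -0.0018 over all features. No member was called lower with smoke at either duration.

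**Figure D1:**
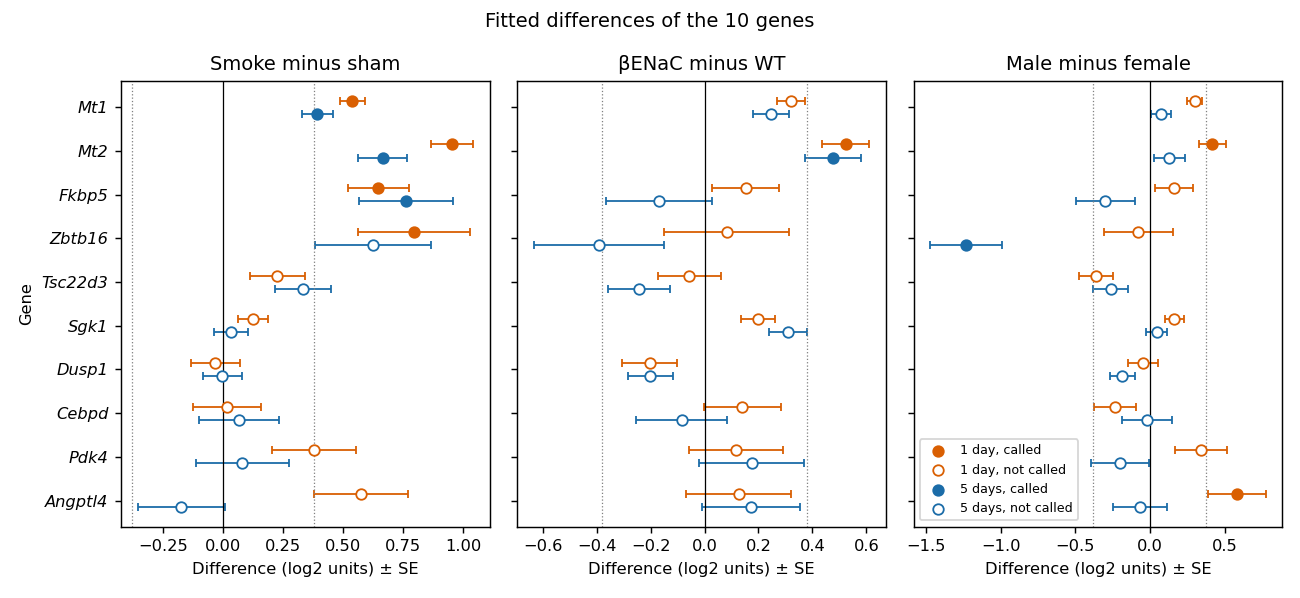
Fitted log2 differences (horizontal axis, with SE bars) of the 10 genes (vertical axis) for smoke minus sham, βENaC minus WT and male minus female at 1 and 5 days, with filled points for called differences and dotted lines at the fold threshold of 0.379. *Mt1*, *Mt2* and *Fkbp5* have filled points to the right in the smoke panel at both durations, and *Zbtb16* has the only filled point left of 0, at -1.23 for male minus female at 5 days.

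*Mt2* had the largest called smoke difference of the 10 genes at 1 day. Its log2 level at 1 day was 8.96 at the lowest, 9.56 at the median and 11.01 at the highest in sham mice, and 9.71, 10.67 and 11.26 in smoke mice. The ranges overlapped, since a βENaC sham male reached 11.01, yet every one of the 20 smoke mice lay above the sham mean of its own genotype and sex. Smoke was higher by 0.95 ± 0.088 (SE) on the log2 scale, or 1.94-fold (adjusted p = 2.68e-10). At 5 days *Mt2* was 8.95, 9.60 and 10.46 in sham mice and 9.79, 10.25 and 10.97 in smoke mice (lowest, median, highest). Here 18 of 19 smoke mice exceeded the sham mean of their own genotype and sex, and the difference was 0.67 ± 0.10 (SE), or 1.59-fold (adjusted p = 1.95e-05).

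*Mt1* moved in the same direction by a smaller log2 difference. At 1 day it was 8.93, 9.44 and 10.03 in sham mice and 9.50, 10.03 and 10.66 in smoke mice (lowest, median, highest). 10 of the 20 smoke mice lay above the highest sham mouse, and all 20 lay above the sham mean of their own genotype and sex. The difference was 0.54 ± 0.051 (SE), or 1.45-fold (adjusted p = 3.96e-10). After 5 days the sham mice were at 9.17, 9.35 and 10.04 and the smoke mice at 9.47, 9.88 and 10.49, with 17 of 19 smoke mice above their sham mean. The 5-day difference of 0.39 ± 0.066 (SE, adjusted p = 7.05e-05) was just past the fold threshold. It came to 0.36 without the WT smoke female mouse replicate 2, to 0.37 without the βENaC smoke female mouse replicate 3 and to 0.37 without the βENaC sham male mouse replicate 4, with adjusted p between 5.86e-05 and 0.000144, so that the fold call was lost in each case. Over all alternatives other than leaving out single mice the difference lay between 0.34 and 0.40.

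The genotype and exposure groups of *Mt2* stood in the same order at both durations. Mean *Mt2* was 9.33 ± 0.27 (SD, n = 10) in WT sham mice, 9.94 ± 0.46 in βENaC sham mice, 10.37 ± 0.40 in WT smoke mice and 10.81 ± 0.29 in βENaC smoke mice (n = 10 each). The ranges of neighbouring groups in this order overlapped. At 5 days the means were 9.34 ± 0.26 (n = 11), 9.98 ± 0.32 (n = 9), 10.15 ± 0.33 (n = 9) and 10.48 ± 0.39 (n = 10). βENaC sham and WT smoke mice then differed by less than 1 SD of either group.

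**Figure D2:**
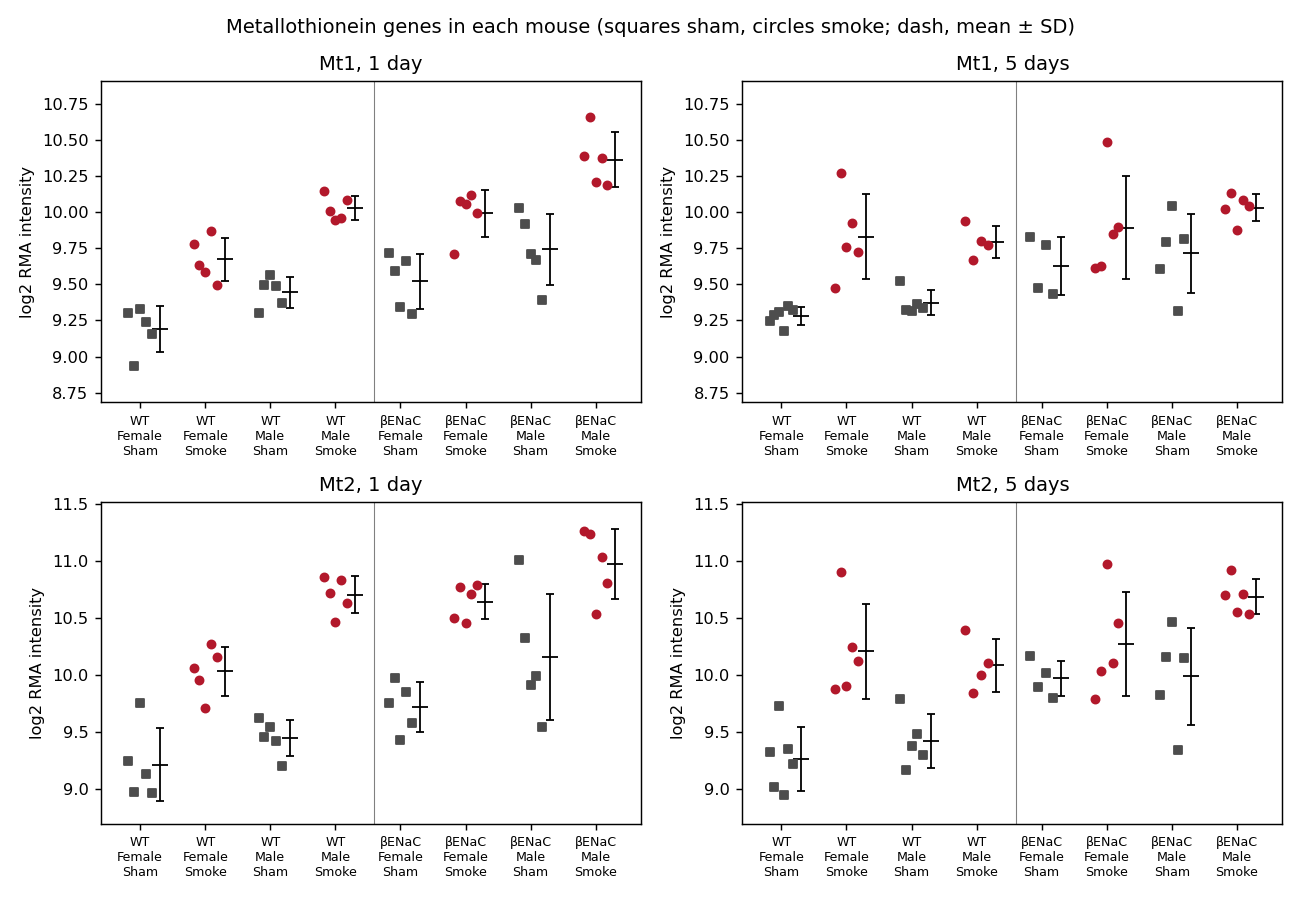
Log2 RMA intensity of *Mt1* (upper row) and *Mt2* (lower row) in each mouse at 1 day (left) and 5 days (right), in 8 groups by genotype, sex and exposure, with squares for sham, circles for smoke and a dash with bars for the mean ± SD. At 1 day the smoke mice exceed the sham mean beside them in all 20 cases for both genes.

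In both genes the smoke difference was positive in all 4 combinations of genotype and sex at each duration. For *Mt2* these differences ran from 0.82 to 1.25 after 1 day and, after 5 days, from 0.30 to 0.94. For *Mt1* they ran from 0.47 to 0.62 and from 0.27 to 0.55. The smallest 5-day differences of both genes were those of βENaC females.

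*Mt1* and *Mt2* lie side by side on chromosome 8. The 250 bases before the *Mt2* start (chr8:94172368-94172617, plus strand, GRCm38.p6, RefSeq) are shown because they hold several copies of the metal response element core to which MTF1 binds, and a shorter stretch (chr8:94179055-94179084, plus strand) because it holds the only copy in the 250 bases before the *Mt1* start of the promoter table. That start, and so the stretch, lies inside the extent that RefSeq lists for *Mt1*. Capitals mark the motif.
Mt2: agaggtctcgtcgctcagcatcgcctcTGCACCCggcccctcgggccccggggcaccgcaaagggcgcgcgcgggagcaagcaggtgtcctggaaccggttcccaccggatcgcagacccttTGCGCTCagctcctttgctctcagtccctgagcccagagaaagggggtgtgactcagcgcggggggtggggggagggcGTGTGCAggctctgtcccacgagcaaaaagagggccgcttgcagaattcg
Mt1: cggtcccgctgTGCACACtggcgctccagg
The searched cores were TGCACNC and TGCGCNC on either strand, which do not overlap each other. *Mt2* held 3 matches, beginning 223, 128 and 50 bases before the start, with the last on the minus strand. *Mt1* held 1, beginning 23 bases before its start in that table. The *Mt1* window begins at 94178839 and the listed extent of the gene at 94178883. Most of the searched *Mt1* bases thus lie inside that extent, and the counts of the 2 genes are not from like stretches. Of 32851 windows of the same length in the RefSeq promoter table, 21.4% held at least 1 core of either form and 1.26% held 3 or more. A match is a description of the letters, and binding was not measured.

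Other genes of the metal response were described by a list. The list of metal response and zinc transport genes had 17 members, all measured, and 0 of 17 were called for exposure by limma at either duration, while 3 and 2 had an unadjusted p below 0.05. Over all features 1.07% and 1.15% were called and 21.5% and 18.2% had such a p, so the counts lay near or below the background. Their median differences were 0.0032 and -0.013. *Slc39a4*, which encodes a zinc importer and was named after its values were seen, was at 0.37 ± 0.051 (SE, adjusted p = 2.99e-06) at 5 days, just under the fold threshold. It was the 1 of 17 called for exposure by duration, at 0.38 ± 0.090 (adjusted p = 0.0258), against 0.612% of all features. *Mtf1*, which encodes the metal-sensing factor, differed by 0.13 ± 0.043 at 1 day (adjusted p = 0.0461, below the fold threshold) and by 0.01 ± 0.038 at 5 days (adjusted p = 0.947). *Slc30a1*, an MTF1 target that exports zinc, differed by 0.03 ± 0.057 and -0.01 ± 0.051 (adjusted p = 0.857 and 0.968). *Mt3* and *Mt4*, the brain and squamous epithelium metallothioneins, had mean log2 levels of 2.68 and 2.78, near the bottom of the range of the table, and were not called.

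*Fkbp5* encodes an immunophilin that binds the receptor complex and lowers its affinity for hormone, and it is among the most used readouts of receptor activity. At 1 day its log2 level was 5.28, 6.02 and 6.86 in sham mice and 6.04, 6.72 and 7.78 in smoke mice (lowest, median, highest). The groups overlapped between 6.04 and 6.86, with 6 smoke mice above the highest sham mouse and 19 of 20 above the sham mean of their own genotype and sex. Smoke was higher by 0.65 ± 0.13 (SE), or 1.57-fold (adjusted p = 0.000485). At 5 days the levels were 5.49, 5.76 and 7.68 in sham mice and 6.18, 6.57 and 9.60 in smoke mice, and 18 of 19 smoke mice exceeded their sham mean. The 5-day difference was 0.76 ± 0.20 (SE), or 1.70-fold (adjusted p = 0.0116).

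The highest *Fkbp5* value, 9.60, was that of the WT smoke female mouse replicate 2, and the next in its group was 6.79. Without this mouse the 5-day difference was 0.60 (adjusted p = 0.00411). The 5-day differences in the 4 combinations of genotype and sex lay between 0.73 and 0.81 with all mice, and those at 1 day between 0.29 in βENaC females and 0.78.

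*Zbtb16* encodes the zinc finger repressor PLZF, which is induced by glucocorticoids in many tissues and is required by innate-like T cells. It was the most variable of the 10 genes, with an SD of 0.95 over all mice. At 1 day it was 6.42, 7.56 and 8.76 in sham mice and 6.51, 8.35 and 9.42 in smoke mice (lowest, median, highest). 6 smoke mice exceeded every sham mouse, while the lowest smoke mouse lay beside the lowest sham mouse. The difference was 0.80 ± 0.23 (SE), or 1.74-fold (adjusted p = 0.0211), and 16 of 20 smoke mice exceeded their sham mean.

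At 5 days *Zbtb16* was 5.97, 7.38 and 9.42 in sham mice and 6.53, 8.06 and 10.53 in smoke mice. The difference of 0.62 ± 0.24 (SE) did not pass (adjusted p = 0.125), with 15 of 19 smoke mice above their sham mean. The exposure by duration term did not separate the durations (adjusted p = 0.936), so the called 1-day difference is not shown to be larger than the 5-day one. Smoke minus sham was positive in all 4 combinations of genotype and sex at both durations, from 0.22 to 1.24 and from 0.33 to 1.14. T and NK cell markers had medians of their summed level of 9.76 in sham and 9.64 in smoke mice at 1 day, with 0 of 7 markers called for exposure by limma and 1 with an unadjusted p below 0.05.

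**Figure D3:**
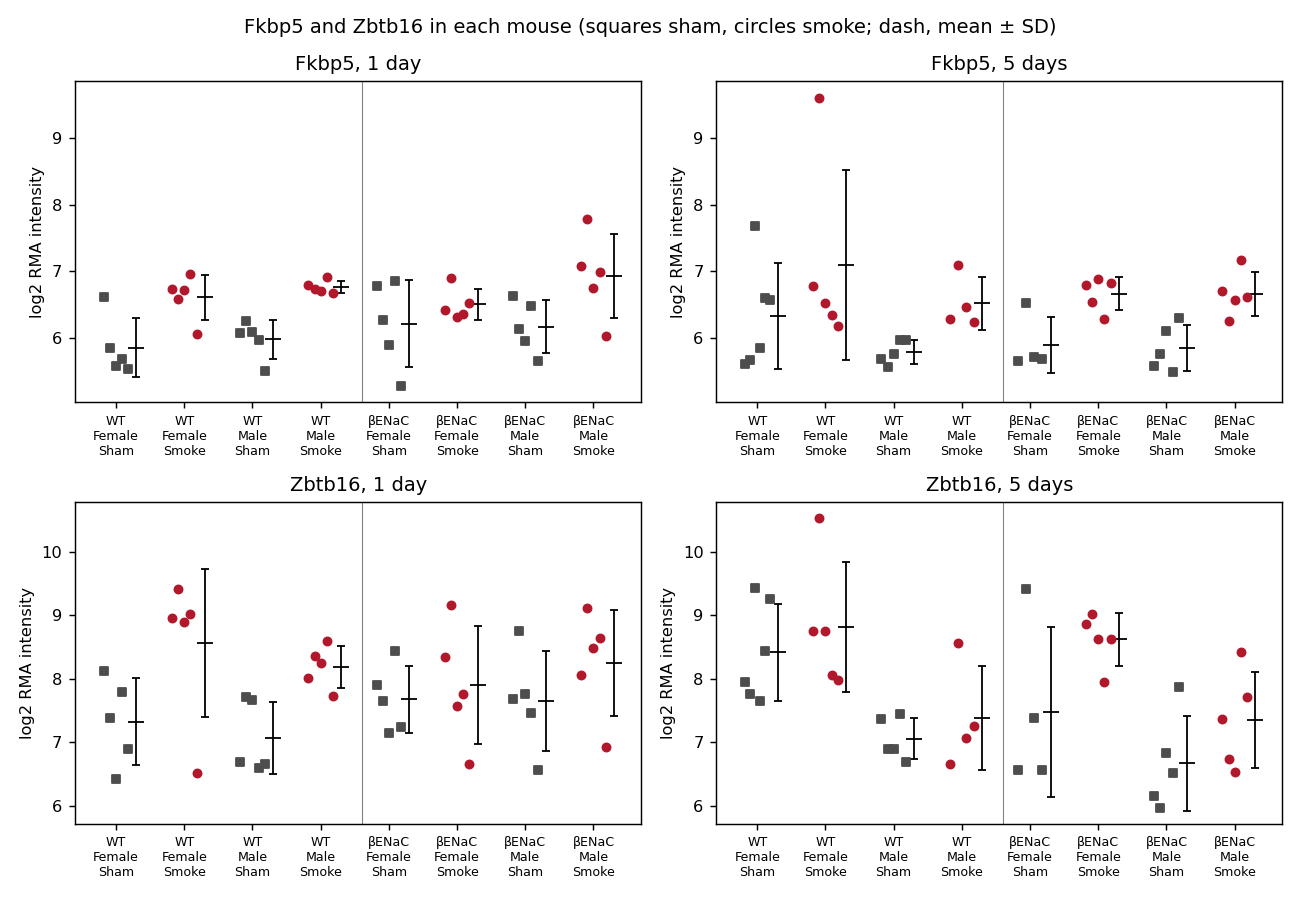
Log2 RMA intensity of *Fkbp5* (upper row) and *Zbtb16* (lower row) in each mouse at 1 day (left) and 5 days (right), in 8 groups by genotype, sex and exposure, with squares for sham, circles for smoke and a dash with bars for the mean ± SD. One WT smoke female at 5 days lies at 9.60 for *Fkbp5* and 10.53 for *Zbtb16*, above all other mice, and *Zbtb16* at 5 days is lower in male than in female groups.

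*Tsc22d3* encodes GILZ, a leucine zipper protein that restrains NF-kB and AP-1. Its log2 level was 5.80, 6.41 and 7.35 in sham and 5.90, 6.72 and 7.53 in smoke mice at 1 day, and 5.91, 6.47 and 7.28 in sham and 6.17, 6.80 and 7.68 in smoke mice at 5 days. The ranges overlapped almost fully. The differences of 0.23 ± 0.12 and 0.33 ± 0.12 (SE) did not pass (adjusted p = 0.255 and 0.0766). The RefSeq table holds 3 start sites of *Tsc22d3*, and 1 of these windows held the single-arm receptor motif AGAACA, as did 16.1% of all windows.

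*Sgk1* encodes a kinase that keeps the epithelial sodium channel at the cell surface and is induced by both mineralocorticoids and glucocorticoids. Its log2 level at 1 day was 8.89, 9.08 and 9.93 in sham mice and 9.01, 9.26 and 9.79 in smoke mice, and the smoke range lay within the sham range. Smoke minus sham was 0.13 ± 0.063 (SE) at 1 day (adjusted p = 0.237) and smaller than its SE at 5 days (adjusted p = 0.873). A stretch of its upstream sequence is printed because 1 of its 6 start sites carries the palindromic motif of the glucocorticoid receptor, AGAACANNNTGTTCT, which only 3 of 32851 windows (0.00913%) held. The stretch is chr10:21993694-21993723 (plus strand, GRCm38.p6, RefSeq), the motif begins 189 bases before that start, and capitals mark it.
Sgk1: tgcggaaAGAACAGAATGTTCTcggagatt
The shorter motif AGAACA, which forms each arm of the palindrome, occurred in 3 of the 6 *Sgk1* windows, and the window with the palindrome held 3 matches of it, of which 2 are the arms themselves. Of the other members, *Fkbp5*, *Dusp1*, *Pdk4*, *Mt1* and *Mt2* had an entry and held neither motif in this window. Of the 10 genes 7 had an entry, and *Zbtb16*, *Angptl4* and *Cebpd* had none.

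*Dusp1* encodes the phosphatase that inactivates p38 and JNK kinases, and *Cebpd* encodes a transcription factor of the acute phase response. *Dusp1* was bright, between 9.34 and 10.81 in all mice, and *Cebpd* was between 5.45 and 7.63. Neither separated the exposures. Their smoke differences at both durations were smaller than their SE, with adjusted p of at least 0.897. For *Dusp1* the 95% interval of the difference was -0.23 to 0.17 at 1 day and -0.16 to 0.16 at 5 days, and for *Cebpd* it was -0.26 to 0.29 and -0.26 to 0.40.

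*Pdk4*, a kinase that shuts glucose carbon out of the mitochondrial citric acid cycle, and *Angptl4*, a secreted inhibitor of lipoprotein lipase, are induced by fasting, PPARs and glucocorticoids. Neither smoke difference passed at 1 day, and only that of *Angptl4* was close to the threshold of the adjusted p. *Angptl4* was 6.34, 7.51 and 8.51 in sham and 6.30, 8.20 and 9.28 in smoke mice at 1 day, a difference of 0.57 ± 0.19 (SE, adjusted p = 0.0541, and between 0.028 and 0.0699 in the alternative fits). *Pdk4* was 5.97, 6.78 and 8.94 in sham and 6.45, 7.31 and 8.25 in smoke mice, a difference of 0.38 ± 0.17 (adjusted p = 0.188). The 8.94 was that of the WT sham male mouse replicate 4, which also had a high skeletal muscle marker level. Without it *Pdk4* differed by 0.48 (adjusted p = 0.0338) and *Angptl4* by 0.61 (adjusted p = 0.0408), and both were called. Leaving out any of 9 other mice singly also called *Angptl4*, while no other mouse left out singly called *Pdk4*.

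At 5 days *Angptl4* was 7.21, 8.40 and 9.05 in sham and 7.08, 8.15 and 10.38 in smoke mice, and *Pdk4* was 6.56, 7.83 and 8.59 in sham and 6.56, 7.72 and 9.99 in smoke mice. Both smoke differences were smaller than their SE (adjusted p = 0.701 and 0.892). The exposure difference of *Angptl4* was positive in all 4 combinations of genotype and sex at 1 day, from 0.09 to 0.81, and negative in all 4 at 5 days, from -0.35 to -0.06. The test of this change, the exposure by duration term, gave -0.73 ± 0.28 (SE, adjusted p = 0.252).

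The durations were also compared within the sham mice. For 5 days minus 1 day *Angptl4* was at 0.85 ± 0.20 (SE, adjusted p = 0.0751) and *Pdk4* at 0.78 ± 0.19 (adjusted p = 0.0788), and 0 of 10 genes were called against 0.00638% of all features, with 2 of the 10 at an unadjusted p below 0.05. By size these were the 9th and 11th largest of the 31350 differences. Duration and the day of the experiment cannot be told apart. With terms for genotype and sex added to the fit, both passed (adjusted p = 0.0353 for *Angptl4* and 0.0485 for *Pdk4*). Without the WT smoke female mouse replicate 2 they had adjusted p of 0.0356 and 0.0406, and with all 3 mice that stood apart left out 0.0177 and 0.00441. Over the alternative fits their adjusted p ran from 0.0177 to 0.0934 and from 0.00441 to 0.0999.

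**Figure D4:**
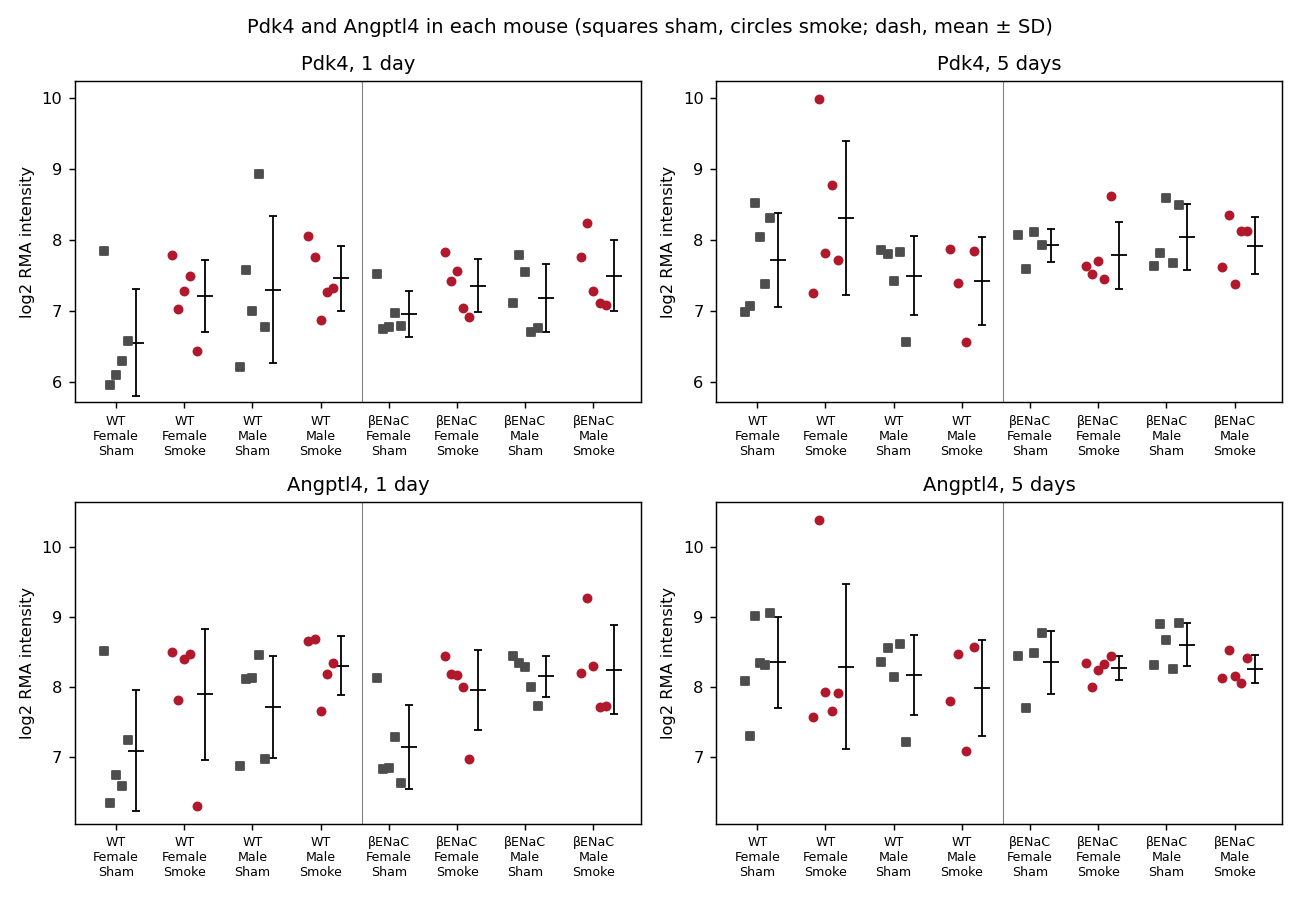
Log2 RMA intensity of *Pdk4* (upper row) and *Angptl4* (lower row) in each mouse at 1 day (left) and 5 days (right), in 8 groups by genotype, sex and exposure, with squares for sham, circles for smoke and a dash with bars for the mean ± SD. The median of the sham mice is 6.78 at 1 day and 7.83 at 5 days for *Pdk4*, and 7.51 and 8.40 for *Angptl4*.

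With the 3 mice that stood apart left out, 6 of the 10 genes were called for exposure at 1 day, the 4 named and *Pdk4* and *Angptl4*, and 2 at 5 days, *Fkbp5* (0.62, adjusted p = 0.00406) and *Mt2* (0.59, adjusted p = 4.52e-05). Over all features 336 and 305 of 31350 were called in these fits. Of the mice left out, only the WT sham male replicate 4 was a 1-day mouse, so the 1-day fit is the one without it given above. For the exposure by duration term 0 of 10 genes were called by limma, against 0.612% of all features, and 1 of the 10, *Angptl4*, had an unadjusted p below 0.05. For the interactions of exposure with genotype and with sex, tested together, 0 of 10 were called at 1 day, against 0.00638% of all features, and 0 of 10 at 5 days, against 0%. None of the 10 had an unadjusted p below 0.05 in either of these tests, and the ordinary linear model called none either. Over all features 2275 at 1 day and 1084 at 5 days had one.

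Cell type markers were measured beside the members. Of 6 neutrophil markers 1 was called for exposure at 1 day by limma, *Retnlg*, at -0.66 ± 0.19 (SE, adjusted p = 0.0237) for smoke minus sham. An unadjusted p below 0.05 was found for 3 of the 6, with a median difference of -0.48 over the markers. Their summed level ran from 9.22 to 11.86 in sham and from 9.19 to 10.92 in smoke mice. At 5 days it ran from 9.23 to 11.15 and from 8.86 to 11.12, with 0 of 6 called and 2 at an unadjusted p below 0.05. Among mice of the same group *Mt2* followed this level (r = 0.49 over 79 mice, a description over arrays that share their normalization). The neutrophil median was 9.79 in smoke and 10.25 in sham mice at 1 day, opposite in direction to *Mt2*. The part of this level in the metallothionein differences was not tested. *Fkbp5* ran against the T and NK cell level (r = -0.41). *Mt2* was at -0.37 with that level, and *Sgk1* at -0.39 with the lung level and 0.36 with the neutrophil level. *Pdk4* had r = 0.35 with the skeletal muscle level. That level had medians between 6.13 and 6.34 by exposure and duration, and reached 12.37 and 12.02 in the mice that stood apart. The r was not computed without them, and the WT sham male 1-day mouse replicate 4 was also high in *Pdk4*. Of the 6 skeletal muscle markers 0 were called for exposure by limma at either duration, and 0 and 1 had an unadjusted p below 0.05. At 5 days 1 of 7 adipocyte markers, *Lep*, and 1 of 5 cardiac muscle markers, *Tnnt2*, were called higher with smoke. By limma 1 of the 7 and 4 of the 5 had an unadjusted p below 0.05, and the median differences were 0.21 and 0.36. Over all features 1.07% at 1 day and 1.15% at 5 days were called for exposure, and 21.5% and 18.2% had an unadjusted p below 0.05. *Lep* had a mean log2 level of 3.31, near the bottom of the range of the table. The 5-day differences ran from -0.21 to 0.52 over the adipocyte markers and from 0.26 to 0.76 over those of cardiac muscle. The summed levels at 5 days ran from 8.81 to 11.12 in sham and from 8.75 to 11.37 in smoke mice for adipocytes, and from 10.61 to 11.89 and from 10.68 to 13.33 for cardiac muscle. The part of these cell types in the 5-day differences was not tested.

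*Mt1* and *Mt2* at both durations and *Sgk1* at 5 days passed the adjusted p for genotype, higher in βENaC mice, with overlapping ranges. *Mt2* was the only member called, at 1 of 10 genes for each duration, against 1.54% of all features at 1 day and 2.52% at 5 days. At 1 day it was 8.96, 9.73 and 10.86 in WT and 9.43, 10.48 and 11.26 in βENaC mice (lowest, median, highest), and 19 of 20 βENaC mice exceeded the WT mean of their own exposure and sex. The difference was 0.52 ± 0.088 (SE, adjusted p = 0.000106) at 1 day and 0.48 ± 0.10 (adjusted p = 0.00135) at 5 days. *Mt1* was higher in βENaC mice by 0.32 ± 0.051 (adjusted p = 3.9e-05) and 0.25 ± 0.066 (adjusted p = 0.0103), past the adjusted p and below the fold threshold.

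*Sgk1* was between 8.96 and 9.74 in WT and between 9.08 and 10.02 in βENaC mice at 5 days, with medians of 9.13 and 9.44. Its difference of 0.31 ± 0.070 (SE, adjusted p = 0.00222) passed the adjusted p and not the fold threshold. At 1 day it was 0.20 ± 0.063 (adjusted p = 0.0509). 17 of 20 βENaC mice at 1 day and 16 of 19 at 5 days exceeded the WT mean of their own exposure and sex. *Dusp1* was at -0.20 at both durations (adjusted p = 0.299 and 0.124). None of the other genes passed the adjusted p for genotype, among them *Zbtb16* at -0.39 ± 0.24 (adjusted p = 0.366) and *Tsc22d3* at -0.24 ± 0.12 (adjusted p = 0.197) at 5 days.

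At 5 days the sex difference of *Zbtb16* was larger than any exposure or genotype difference of the 10 genes, though the ranges overlapped. Its 5-day level was 6.56, 8.53 and 10.53 in females and 5.97, 6.90 and 8.56 in males (lowest, median, highest). Males were lower by 2.35-fold, at -1.23 ± 0.24 (SE, adjusted p = 0.00472), and it was the only member called, against 0.198% of all features. Without the WT smoke female mouse replicate 2 the difference was -1.15 (adjusted p = 0.00579). T and NK cell markers had median summed levels of 9.91 in females and 9.60 in males at 5 days, with 0 of 7 called for sex by limma and 1 at an unadjusted p below 0.05. Their part in the difference was not tested. At 1 day *Zbtb16* was 6.42, 7.78 and 9.42 in females and 6.56, 7.75 and 9.12 in males, a difference smaller than its SE. Whether the sex difference differed between the durations was not tested.

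At 1 day 2 of the 10 genes were called for sex, against 0.836% of all features. *Mt2* was higher in males by 0.42 ± 0.088 (SE, adjusted p = 0.00115), with medians of 9.90 in females and 10.50 in males, and *Angptl4* by 0.58 ± 0.19 (adjusted p = 0.0493), with medians of 7.55 and 8.20. The *Angptl4* call was lost in 6 of 9 alternative fits (adjusted p between 0.0269 and 0.0764 over all 9) and without any of 27 of the 40 mice left out singly, and that of *Mt2* was lost when the βENaC sham male mouse replicate 1 was left out (0.37, below the fold threshold). *Mt1* was higher in males by 0.30 ± 0.051 (adjusted p = 8.41e-05) and *Tsc22d3* lower by 0.36, at -0.36 ± 0.12 (adjusted p = 0.0381), both below the fold threshold. Of 7 adipocyte markers 2 were called higher in males at 1 day, with a summed level from 8.88 to 10.47 in females and from 9.23 to 11.20 in males, and 1 of 6 neutrophil markers was called lower, with a summed level from 9.46 to 11.86 in females and from 9.19 to 11.57 in males. Their part in the 1-day sex differences was not tested. At 5 days the differences of *Mt1* and *Mt2* were 0.08 ± 0.066 and 0.13 ± 0.10 (adjusted p = 0.721 and 0.68).

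Some of the genes also varied together among mice of the same group. Group means were removed and 10 of the 45 pairs, those of *Fkbp5* with each other gene and *Mt1* with *Mt2*, were tested over 79 mice with two-sided permutation tests within groups, and after adjustment over the 10 all passed for Pearson's r and 9 for Spearman's rho. The closest of the tested pairs were the metallothioneins, with r = 0.81 and Spearman's rho = 0.77 (adjusted p = 3.33e-05 and 5e-05), and r = 0.77 without the 2 mice farthest from the median of *Mt1*. *Fkbp5* followed *Zbtb16* with r = 0.72 and rho = 0.72 (adjusted p = 3.33e-05 and 5e-05), and r = 0.71 without the 2 mice farthest from the median of *Fkbp5*. This relation held at each duration, with r = 0.65 at 1 day and 0.78 at 5 days.

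*Fkbp5* followed *Angptl4* (r = 0.61, rho = 0.46), *Tsc22d3* (r = 0.57, rho = 0.52), *Pdk4* (r = 0.50, rho = 0.38), *Mt2* (r = 0.48, rho = 0.45), *Mt1* (r = 0.47, rho = 0.41), *Cebpd* (r = 0.45, rho = 0.42) and *Dusp1* (r = 0.33, rho = 0.28). The adjusted permutation p of these r lay between 3.33e-05 and 0.00427 and those of rho between 0.000133 and 0.0209. Without the 2 farthest mice r was 0.49, 0.55, 0.35, 0.36, 0.41, 0.40 and 0.33 in the same order. *Fkbp5* with *Mt1* had r = 0.66 at 1 day and 0.37 at 5 days, where its adjusted permutation p was 0.0704, the same as that of *Fkbp5* with *Dusp1* (r = 0.31 at 5 days). *Fkbp5* with *Sgk1* was the weakest (r = 0.30, rho = 0.21, adjusted permutation p = 0.0251 and 0.0842), came to r = 0.18 without the 2 farthest mice and rested on them.

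**Figure D5:**
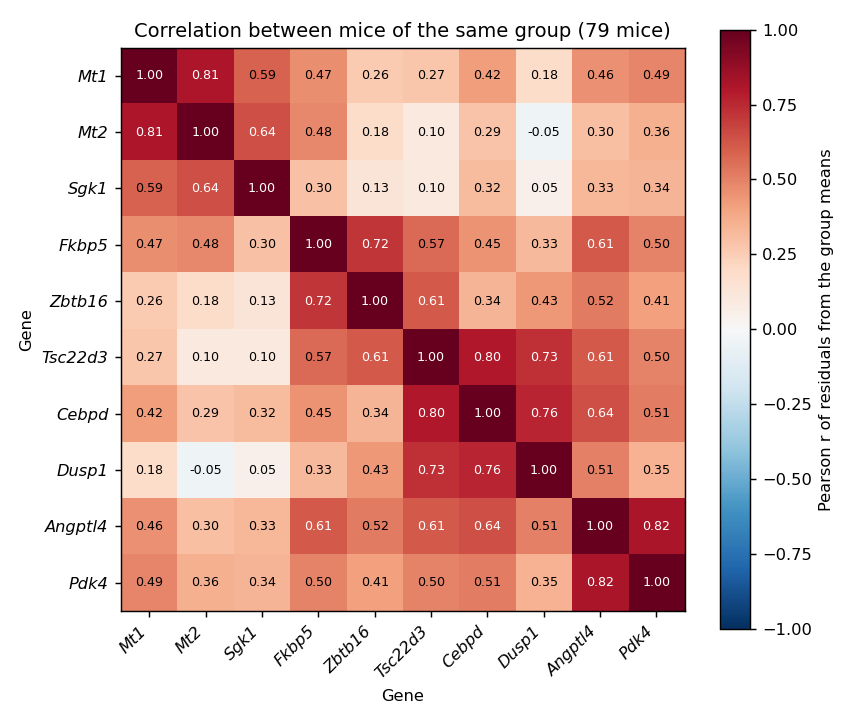
Pearson r between the 10 genes (both axes) over 79 mice after the mean of each of the 16 groups was removed, with red for positive and blue for negative values. *Pdk4* with *Angptl4* (0.82), *Mt1* with *Mt2* (0.81) and *Tsc22d3* with *Cebpd* (0.80) are the closest pairs, and *Mt2* with *Dusp1* is the lowest, at -0.05.

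The other pairs were not tested. They fell into an order in which *Pdk4* and *Angptl4* (r = 0.82), *Tsc22d3*, *Cebpd* and *Dusp1* (r = 0.73 to 0.80) and *Mt1*, *Mt2* and *Sgk1* (r = 0.59 to 0.81) were close within themselves, while *Mt2* with *Dusp1* was at -0.05 and *Sgk1* with *Dusp1* at 0.05. All pairs share arrays and normalization.

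Over all features with a symbol, those most like *Fkbp5* in these residuals were *Map3k6* (r = 0.89), *Hif3a* (0.88), *Stt3b* (0.86), *Sema7a* (0.86) and *Klhl2* (0.85). Those most like *Mt1* outside the members were *Kcnk1* (0.70), *Serpina3n* (0.69), *Plekhm2* (0.67), *Col24a1* (0.64) and *Atp1b1* (0.64). These are the highest of many correlations over 79 mice and carry no p.

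Of 30 other glucocorticoid-induced genes listed, 29 were measured and 2 were called for exposure at each duration, all higher with smoke, against 1.07% and 1.15% of all features. The adjusted p alone was passed by 6 and 9 of the 29, against 2964 and 2048 of all 31350 features. An unadjusted p below 0.05 was found for 11 and 19 of the 29, against 21.5% and 18.2% of all features. The median log2 differences over the 29 were 0.11 and 0.21. *Fam107a*, an actin-associated stress protein gene, was higher by 0.75 ± 0.13 (SE, adjusted p = 0.00018) at 1 day and 0.79 ± 0.19 (adjusted p = 0.0065) at 5 days. *Cdkn1a*, the cell cycle inhibitor that p53 also induces, was higher by 0.48 ± 0.094 (adjusted p = 0.000474) at 1 day and at 0.27 ± 0.13 (adjusted p = 0.231) at 5 days. *Rasd1*, a small G protein gene, was at -0.16 ± 0.097 (adjusted p = 0.348) at 1 day and higher by 0.50 ± 0.14 (adjusted p = 0.0193) at 5 days, and its exposure by duration term gave an adjusted p of 0.0527.

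Of 16 genes of the receptor, its chaperones and cortisol handling, 12 were measured and 0 were called for exposure at either duration by limma, while 5 at 1 day and 2 at 5 days had an unadjusted p below 0.05. With 1.07% and 1.15% of all features called, 0 called in a list of this size is near the background. Over all features 21.5% and 18.2% had such an unadjusted p. It was more frequent in the list at 1 day and near that share at 5 days. Whether the list differs from all features was not tested. The adjusted p alone was passed by 3 of the 12 genes at 1 day and 1 at 5 days, against 2964 and 2048 of all 31350 features. These genes were all below the fold threshold and named after their values were seen. *H6pd*, which supplies the cofactor of the corticosterone-forming enzyme, was at 0.28 ± 0.048 (adjusted p = 7.65e-05) at 1 day and 0.19 ± 0.043 (adjusted p = 0.00369) at 5 days. At 1 day *Hsd11b2*, which inactivates corticosterone, was at 0.29 ± 0.080 (adjusted p = 0.0141) and *Hspa8*, a chaperone gene, at 0.16 ± 0.042 (adjusted p = 0.0116). *Nr3c1*, the glucocorticoid receptor gene, differed by -0.03 ± 0.034 and -0.07 ± 0.036 (SE, adjusted p = 0.719 and 0.343). *Fkbp4*, the immunophilin that counters *Fkbp5* in the receptor complex, differed by 0.06 ± 0.061 and -0.05 ± 0.050 (adjusted p = 0.635 and 0.662). *Nr3c2* and *Hsd11b1* were not analysed here.

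Genes that glucocorticoids repress were split. Of 14 listed, 13 were measured, 2 were called at 1 day and 3 at 5 days, against 1.07% and 1.15% of all features, with medians of -0.07 and -0.16. *Ptgs2*, which encodes the inducible prostaglandin synthase COX-2, was higher with smoke by 1.37 ± 0.15 (adjusted p = 2.09e-08) and 0.64 ± 0.093 (adjusted p = 7.78e-06). The others called were lower with smoke, namely *Nos2* at 1 day (-0.58 ± 0.084, adjusted p = 7e-06), and *Il1b* (-0.62 ± 0.17, adjusted p = 0.0159) and *Cxcl10* (-0.45 ± 0.10, adjusted p = 0.00266) at 5 days. *Nos2* at 5 days was at -0.33 ± 0.097 (adjusted p = 0.0281), below the fold threshold. *Nos2* and *Cxcl10* were dim, with mean log2 levels of 4.27 and 4.49, where array medians lay between 4.44 and 4.55. For genotype 7 of the 13 were called at 1 day, 6 of them higher in βENaC mice, and 9 at 5 days, 8 of them higher. Over all features 1.54% and 2.52% were called for genotype, and 1.13% and 1.87% were called higher in βENaC mice.

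In the list of PPAR and fasting genes, 0 of 22 were called for exposure at either duration by limma, while 7 and 11 had an unadjusted p below 0.05, with median differences of 0.08 and 0.05. For sex at 1 day 4 of the 22 were called, all higher in males, with a median of 0.21, against 0.836% of all features. In the list of C/EBP and acute phase genes 0 of 11 were called for exposure at either duration, while 6 and 5 had an unadjusted p below 0.05, and 2 of 11 were called higher in βENaC mice at each duration, against 1.13% and 1.87% of all features. For exposure, 0 called in lists of this size is near the 1.07% and 1.15% of all features. An unadjusted p below 0.05 was more frequent in both lists than over all features, where 21.5% and 18.2% had one. The adjusted p alone was passed by 2 and 6 of the 22 PPAR and fasting genes. It was passed by 2 and 2 of the 11 C/EBP and acute phase genes, and by 2964 and 2048 of all 31350 features. Whether the lists differ from all features was not tested.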

How the data were processed

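Lung RNA of 79 mice was measured on Affymetrix moGene2.1 arrays, 1 per mouse, run on the same plate. The values the authors deposited were on the log2 scale. The authors had applied the RMA background step, adjusted for the GC content and sequence of probes, quantile-normalized the arrays and summarised probes by median polish, after taking out 1 mislabelled array. The submitters' processing notes name Affymetrix Expression Console 1.4, Partek 6.6 and RMA. No counts exist for arrays, and their number limits the precision. Quantile normalization would hide a change shared by most genes, and the probes of *Mt1* and *Mt2* were not checked for binding each other's RNA. Replicates were taken as separate mice from the sample titles.

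Features were named from RefSeq or, where RefSeq gave no name, from the study's tables, which gave 21833 of 31350 a symbol. For each duration an additive model of genotype, exposure and sex was fitted with limma 3.58.1 in R 4.3.3. All features entered the Benjamini-Hochberg adjustment. Calls needed an adjusted p below 0.05 and, except for interaction terms, more than 1.3-fold (0.379). Exposure by duration was fitted over all mice, which also gave the duration difference in sham mice, and the interactions of exposure with genotype and sex were tested jointly by limma's F-test. The exposure term of the additive model was tested on simulated data, and the other terms and fits were not. Correlations used residuals from the group means and 100000 permutations within groups, whose smallest p is 1e-05. Summed marker levels are the log2 of the sum of linear intensities. Lists were described by counts and medians.

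The members and lists were chosen with earlier results of these data known. Named were the members, list genes called for exposure, *Nr3c1*, *Nr3c2*, *Hsd11b1*, *Fkbp4*, *Mtf1*, *Slc30a1*, *Mt3* and *Mt4*, and the 5 features most like *Fkbp5* and *Mt1*. Promoter windows came from the RefSeq table of GRCm38.p6, of which the 250 bases before each start were searched. Alternatives were the ordinary linear model, array weights, a trended robust prior, median centring, quantile normalization, omission of the 30% of features with the lowest mean, the replicate number as a block, 1 fit over all mice, no fold threshold, added terms, and each mouse left out. Omission of the 3 mice that stood apart was chosen after seeing the data. Replicate numbers were not taken as pairing mice. Deviations from the group means, over all features, had a mean correlation of 0.00864 between mice of the same number, against -0.00179 for other numbers. This was not checked over the members alone.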

Additional observations from a re-analysis of the deposited data

Results flagged for a closer look

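In 15 of the 160 combinations of gene and group, 1 mouse lay far from the others of its group, where chance gives about 1 in 20. The log2 levels of these mice are given with the nearest other mouse of the group in brackets. 3 came from the WT smoke female 5-day mouse replicate 2, with *Fkbp5* at 9.60 (6.79), *Angptl4* at 10.38 (7.93) and *Sgk1* at 9.74 (9.24). 3 came from the WT smoke female 1-day mouse replicate 5, which was low in *Zbtb16* at 6.51 (8.90), *Dusp1* at 9.44 (10.34) and *Cebpd* at 5.79 (7.00).

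The other 9 came from different mice. *Tsc22d3* was at 7.35 (6.42) in the WT sham female 1-day mouse replicate 1, at 5.90 (6.87) in the βENaC smoke female 1-day mouse replicate 5 and at 6.31 (6.79) in the βENaC smoke female 5-day mouse replicate 2. *Pdk4* was at 7.53 (6.97) in the βENaC sham female 1-day mouse replicate 1 and at 8.62 (7.71) in the βENaC smoke female 5-day mouse replicate 5. *Fkbp5* was at 6.52 (5.72) in the βENaC sham female 5-day mouse replicate 2, and *Sgk1* at 10.02 (9.29) in the βENaC smoke female 5-day mouse replicate 3. *Dusp1* was at 9.85 (10.25) in the WT sham female 5-day mouse replicate 2, and *Mt1* at 9.53 (9.36) in the WT sham male 5-day mouse replicate 1.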

How the results depend on the processing

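The counts of genes called for exposure lay between 4 and 6 after 1 day and between 2 and 3 after 5 days over the alternatives, and no coefficient larger than its SE reversed its sign. The count for sex at 1 day, 2 in the report, came to 1 with the ordinary linear model, with a trended robust prior, with arrays centred on the median and with the 3 mice that stood apart left out, and to 4 with no fold threshold. With no fold threshold genotype gave 2 at 1 day and 3 at 5 days. The count for duration in sham mice, 0 in the report, came to 1 with array weights, to 2 with genotype and sex terms added and to 2 with the 3 mice left out. With single mice left out it lay between 0 and 2, and that for sex at 1 day between 0 and 3. The cause of these changes was not tested.

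Other than the mice named in the report, *Angptl4* was called for duration in sham mice without the 1-day mice WT sham female 1 (adjusted p = 0.0454), βENaC sham male 2 (0.047) and WT sham male 4 (0.0489) or the 5-day mice WT sham female 2 (0.0493) and WT sham male 5 (0.0371). *Pdk4* was called without the 1-day mice βENaC sham male 2 (0.0493) and WT sham male 4 (0.0222) or the 5-day mouse WT sham male 5 (0.0371). With the replicate number as a block, 5 genes were called for exposure at 1 day, with *Angptl4* added (adjusted p = 0.0298), 3 at 5 days, and the other counts were as in the report. No other row of a member exists on the array, so that alternative could not be run.

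Over all features, calls with no fold threshold were 2964 and 2048 for exposure at 1 and 5 days, 1840 and 3191 for genotype and 3101 and 193 for sex. For exposure by duration, 192 in the report, they ran from 139 to 447, and for duration in sham mice, 2 in the report, from 1 to 16. For the interactions at 1 day, 2 in the report, they ran from 0 to 5.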
